A study of Bos taurus with 6 samples.

Results

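The 7 genes described here encode the troponin subunits of striated muscle. They were taken by name from the 22839 gene symbols counted in longissimus thoracis (LT) muscle of 6 Korean cattle steers. Troponin T is encoded by TNNT1 (slow fibres), TNNT2 (heart) and TNNT3 (fast fibres), troponin C by TNNC1 (slow fibres and heart) and TNNC2 (fast fibres), and troponin I by TNNI1 (slow fibres) and TNNI2 (fast fibres). Of the 7 genes, 6 passed the filter on low counts, and TNNT2 did not. The steers were Hanwoo (Korean native cattle), raised and fed conventionally, with 1 library per steer. The high-NFMP group held steers 3-8, 10-8 and 10-9, aged 32.5, 33.8 and 34.5 months, and the low-NFMP group held steers 3-1, 3-3 and 10-16, aged 37.8, 33.7 and 35.4 months. NFMP is the number of fine marbling particles, small flecks of fat seen in a cross-section of the LT. The steers were chosen by NFMP, and no matching on other carcass traits was described. The paper reports a higher marbling score and a larger rib eye area in the sequenced high-NFMP steers than in the sequenced low-NFMP steers.

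Troponin is the calcium switch of the sarcomere. Troponin C binds calcium, troponin I holds back the interaction of actin with myosin until calcium arrives, and troponin T fastens the complex to tropomyosin on the thin filament. Slow, oxidative fibres and fast, glycolytic fibres each use their own set of subunits, so the ratio of the slow to the fast form is a common readout of the fibre makeup of a muscle. In a piece of muscle, fewer fibres of a type and less RNA per fibre cannot be told apart.

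The libraries were made with a 3′ mRNA kit, in which cDNA starts at the poly(A) tail, so a count was not divided by transcript length. A ratio of counts between 2 genes also carries any difference in how well their 3′ ends were captured and annotated. Ratios are therefore compared between steers, and their absolute size is not a ratio of proteins. The total counts lay between 16283873 and 17192750 per library, and the 7 genes together held between 0.572% and 0.865% of them. Each of the 8 skeletal muscle markers was counted, and their sum lay between 101900 and 121400 CPM (counts scaled to equal library totals) in the 6 libraries. Of the 6 heart markers, TNNT2 and MYL7 stayed below 10 counts in every library, NPPA was not among the symbols analysed here, TNNI3 and MYL4 were low, and MYH6 alone was counted often, between 923 and 1722 times. MYH6 is close in sequence to MYH7, the slow myosin heavy chain, and whether the 2 genes shared reads was not tested.

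Normalized counts are raw counts divided by each library's effective size (its total times a TMM factor, edgeR's correction for composition) and brought back to the mean of those sizes. The groups were compared with edgeR's quasi-likelihood test over 15039 rows. No troponin gene passed the test for a difference between the groups. The study's thresholds (unadjusted p below 0.05 and more than 2-fold) were applied here to the edgeR test, whereas the study used quantile normalization. By them 0 of the 6 tested genes were called against 3.9% of all tested genes. At an adjusted p below 0.05 by edgeR, it was 0 of 6 against 0.685%. None of the 6 had an unadjusted p below 0.05 by edgeR, against 11.5% of all tested genes. At an adjusted p below 0.05, DESeq2 called 0 of the 6 against 1.97% of all genes with an adjusted p, and limma 0 against 0.432%. The groups overlapped in all 6 genes, whereas they did not overlap in 17.1% of all tested genes. The log2 fold changes of high against low NFMP ran from -0.20 to 0.42 with a median of 0.07, beside a median of 0.02 over all tested genes.

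TNNT1, the slow troponin T, had 8919, 11838 and 14168 normalized counts in steers 3-8, 10-8 and 10-9 with high NFMP, against 9156, 10573 and 10646 in the low-NFMP steers 3-1, 3-3 and 10-16. The high-NFMP steers held both the lowest and the highest value. The log2 fold change was 0.20 (95% interval -0.24 to 0.64, adjusted p = 0.748 by edgeR), and it was 0.053 without steer 10-9 and 0.36 without steer 3-8. TNNT3, the fast troponin T, had 20417, 27827 and 43070 normalized counts in the high-NFMP steers and 21529, 26096 and 20632 in the low-NFMP steers. Steer 10-9 stood far above the other 5, and its lead was larger than the whole range of those 5. The log2 fold change of TNNT3 was 0.42 (95% interval -0.12 to 0.96, adjusted p = 0.562 by edgeR), the largest of the 6 tested genes. It fell to 0.10 without steer 10-9 and rose to 0.64 without steer 3-8, where the unadjusted p by edgeR was 0.0153 and the fold change stayed under 2. TNNT2, the heart form of troponin T, had raw counts of 7, 3 and 5 in steers 3-8, 10-8 and 10-9 and of 4, 1 and 1 in steers 3-1, 3-3 and 10-16, which is too few to compare.

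**Figure D1:**
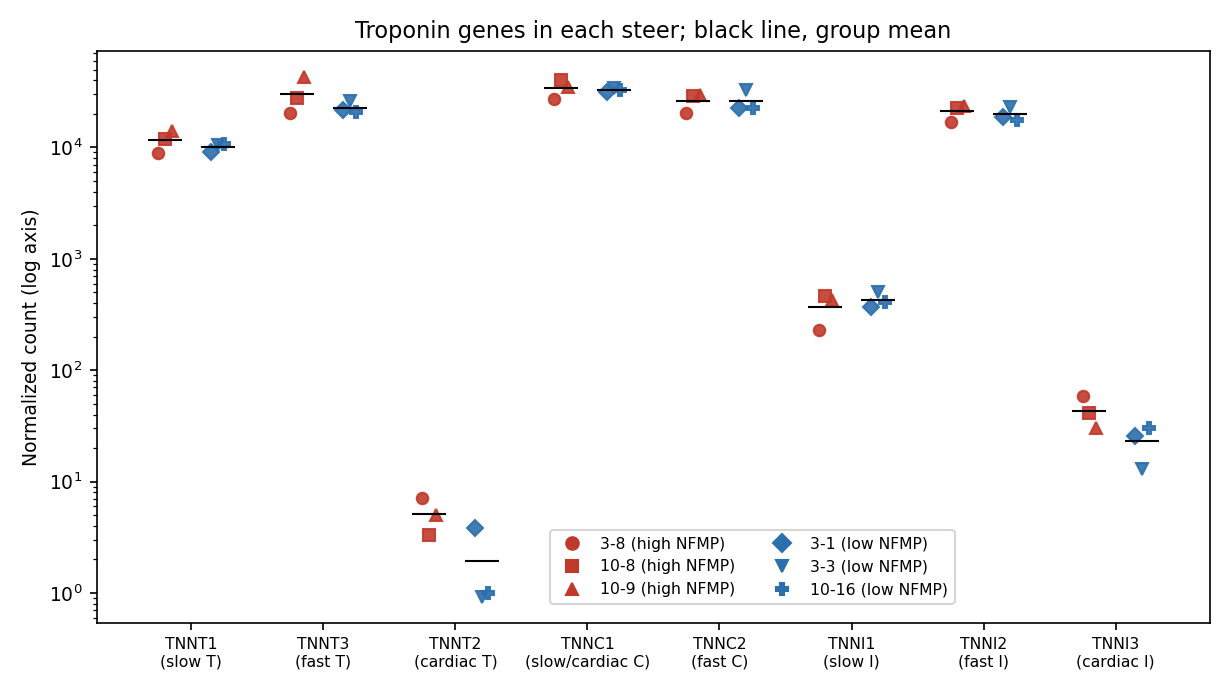
Normalized counts (log axis) of the 7 troponin genes and of TNNI3 in each steer, with high-NFMP steers in red, low-NFMP steers in blue and group means as black lines. The points of the 2 groups overlap in every gene, TNNI1 lies far below TNNI2, and TNNT2 stays below 10.

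TNNC1, the troponin C of slow fibres and heart, was the most counted of the 7 genes in 5 of the 6 steers. It had 27177, 40133 and 34879 normalized counts in the high-NFMP steers and 31123, 34305 and 32573 in the low-NFMP steers. The low-NFMP steers lay within the range of the high-NFMP steers, and the log2 fold change was 0.06 (95% interval -0.38 to 0.50, adjusted p = 0.934 by edgeR). TNNC2, the fast troponin C, had 20545, 28875 and 29449 normalized counts against 22398, 32561 and 22731. Its log2 fold change was 0.02 (95% interval -0.46 to 0.50, adjusted p = 0.979 by edgeR). The means of both troponin C genes were almost equal in the groups, and the sign of their small differences turned with the way libraries were scaled. With library totals alone the log2 fold changes were -0.018 for TNNC1 and -0.063 for TNNC2.

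TNNI2, the fast troponin I, had 17048, 22347 and 23686 normalized counts in the high-NFMP steers and 18744, 23003 and 17761 in the low-NFMP steers, with a log2 fold change of 0.08 (95% interval -0.36 to 0.53, adjusted p = 0.901 by edgeR). It was 0.0069 without steer 10-9, 0.20 without steer 3-3 and 0.21 without steer 3-8. TNNI1, the slow troponin I, was rare by comparison, with 229.0, 465.6 and 424.2 normalized counts against 371.3, 504.3 and 407.9. Steer 3-8 held the lowest value and steer 3-3 the highest. The log2 fold change of TNNI1 was -0.20 (95% interval -0.74 to 0.34, adjusted p = 0.800 by edgeR), and without steer 3-8 it turned to 0.054. Steer 3-8, lowest in all 6 tested troponin genes, also had the highest sum of the 6 adipocyte markers, at 556.3 CPM against 175.9 to 277.8 CPM in the other 5 steers. The part of fat tissue in the troponin values was not tested. The heart form of troponin I, TNNI3, is not among the 7 genes. Its raw counts were 58, 37 and 30 in steers 3-8, 10-8 and 10-9 and 27, 14 and 30 in steers 3-1, 3-3 and 10-16, a log2 fold change of 0.91 (95% interval -0.03 to 1.86, adjusted p = 0.456 by edgeR). TNNI3 was past the p and fold change threshold without steer 10-9 (log2 fold change 1.13, unadjusted p = 0.0306 by edgeR) or without steer 10-16 (1.18, unadjusted p = 0.0362 by edgeR). It was 0.62 both without steer 3-8 (unadjusted p = 0.227 by edgeR) and without steer 3-3 (unadjusted p = 0.199 by edgeR).

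The question of the comparison for each subunit was whether muscle with many fine marbling particles carried a different balance of slow and fast troponin. For troponin T, the ratio of TNNT1 to TNNT3 counts was 0.437, 0.425 and 0.329 in steers 3-8, 10-8 and 10-9 with high NFMP, against 0.425, 0.405 and 0.516 in the low-NFMP steers 3-1, 3-3 and 10-16. Steer 10-9 was lowest and steer 10-16 highest, and the other 4 lay close together. The means were 0.397 ± 0.059 (SD, n = 3) and 0.449 ± 0.059 (SD, n = 3). On the log2 scale the difference of the means was -0.18 (two-sided exact permutation p = 0.6), and it was -0.050 without steer 10-9.

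For troponin C, the ratio of TNNC1 to TNNC2 was 1.32, 1.39 and 1.18 in the high-NFMP steers and 1.39, 1.05 and 1.43 in the low-NFMP steers. Slow troponin C was counted more often than fast troponin C in all 6 steers, unlike the other subunits. The means were 1.30 ± 0.105 (SD, n = 3) and 1.29 ± 0.208 (SD, n = 3), and the log2 difference was 0.018 (two-sided exact permutation p = 0.9). For troponin I, the ratio of TNNI1 to TNNI2 was 0.0134, 0.0208 and 0.0179 in the high-NFMP steers and 0.0198, 0.0219 and 0.0230 in the low-NFMP steers. Steers 3-8 and 10-9 were the lowest of the 6, while steer 10-8 lay among the low-NFMP steers. The means were 0.0174 ± 0.0037 (SD, n = 3) and 0.0216 ± 0.0016 (SD, n = 3), with a log2 difference of -0.33 (two-sided exact permutation p = 0.2) that was -0.16 without steer 3-8.

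**Figure D2:**
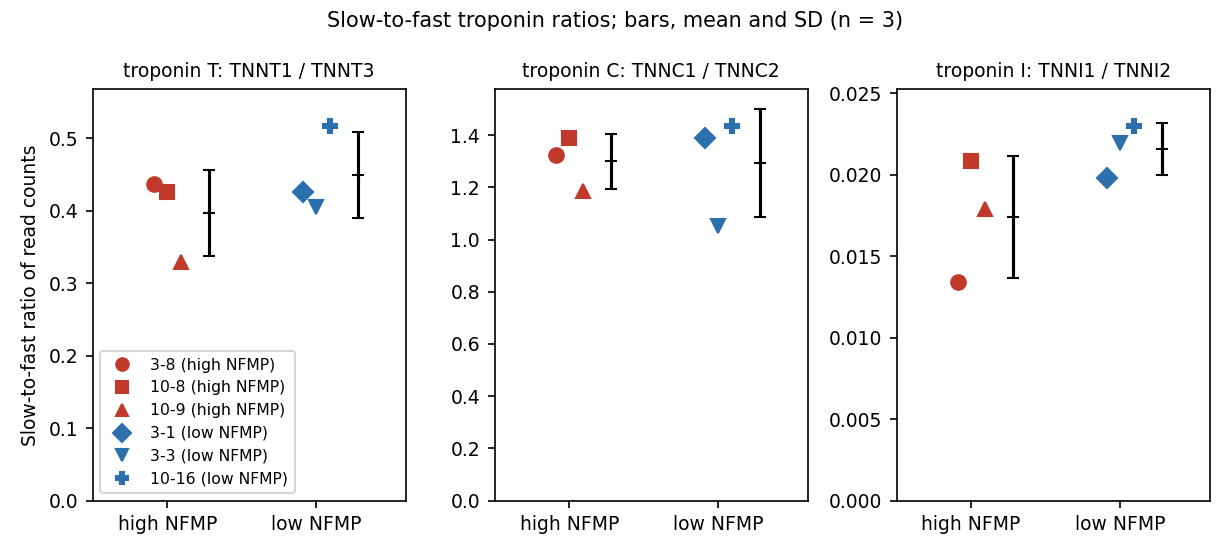
Slow-to-fast ratio of read counts for troponin T, C and I in each steer, each panel with its own axis from 0, with the mean and SD of each group (n = 3) as black bars. The groups overlap in all 3 panels, and the ratio runs from 0.329 to 0.516 for T, from 1.05 to 1.43 for C and from 0.0134 to 0.0230 for I.

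None of the 3 ratios separated the groups, and with 3 steers against 3 the exact test cannot give a p below 0.1. The 9 differences between a high-NFMP and a low-NFMP steer span an exact 90% interval for a shift between the groups. As a fold of the low-NFMP ratio it ran from 0.638 to 1.08 for T, from 0.827 to 1.32 for C and from 0.585 to 1.05 for I. Counting error was small beside these ranges, with a standard error of the log2 ratio of at most 0.018 for T, 0.013 for C and 0.097 for I.

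**Figure D3:**
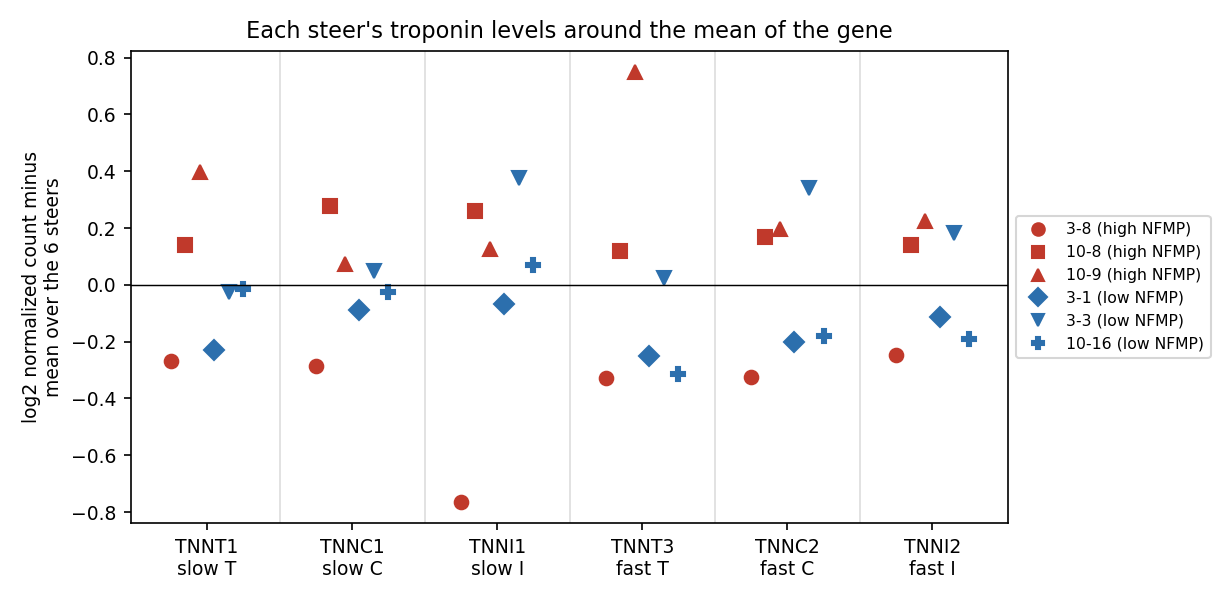
Log2 normalized count of each tested troponin gene in each steer, minus the mean of the gene over the 6 steers, slow forms left and fast forms right. Steers 10-8 and 10-9 lie above 0 and steers 3-8 and 3-1 below 0 in every gene.

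The troponin genes varied together from steer to steer, across the NFMP groups. Steers 10-8, 10-9 and 3-3, which are 2 high-NFMP steers and 1 low-NFMP steer, held the 3 highest values of TNNT3, TNNC1, TNNC2, TNNI1 and TNNI2, which are 5 of the 6 tested genes. In TNNT1 steer 10-16 exceeded steer 3-3 by a small margin. Among all tested genes 5.03% had these same 3 steers highest. This order was noticed in the data, so it is a description with no test. Together the 7 genes had 131489, 145681 and 127043 normalized counts in steers 10-8, 10-9 and 3-3, and 94342, 103325 and 104751 in steers 3-8, 3-1 and 10-16. Their share of all counts, which is scaled by library total and not by TMM factors, was 0.716%, 0.865% and 0.818% in the former and 0.572%, 0.629% and 0.604% in the latter. With counts per library total, 6 of the 6 tested genes had those 3 steers highest.

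The same count was taken over lists of other muscle genes. Steers 10-8, 10-9 and 3-3 were highest in 1 of 18 other thin filament genes, 1 of 15 slow fibre genes, 4 of 16 fast fibre genes and 0 of 20 fibre type regulators. The fast fibre genes were MYLPF, a myosin light chain, ATP2A1, the fast calcium pump, MYBPC2, a fast myosin binding protein, and ACTN3, the fast alpha-actinin. The slow fibre gene was CSRP3, a muscle LIM protein of the Z-disc. The thin filament gene was ACTC1, the actin of heart and fetal muscle, with 8479, 12344 and 5698 normalized counts in steers 10-8, 10-9 and 3-3 and 492.5, 258.4 and 370.5 in steers 3-8, 3-1 and 10-16. The highest ACTC1 value was 47.8 times the lowest, against at most 2.20 times among the 6 tested troponin genes, and its log2 fold change between the groups was 1.75 (adjusted p = 0.768 by edgeR). The summed smooth muscle markers were also highest in these 3 steers, at 91.4, 118.6 and 103.0 CPM against 73.7, 77.7 and 63.7. Of the 4 smooth muscle markers, MYH11 and ACTA2 had this order, and TAGLN and CNN1 did not. The part of smooth muscle in the troponin levels was not tested.

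Ratios were also taken among the fast subunits. The ratio of TNNI2 to TNNC2 stayed between 0.706 and 0.837 in the 6 steers. The ratio of TNNT3 to TNNI2 was 1.20, 1.25 and 1.82 in steers 3-8, 10-8 and 10-9 with high NFMP, against 1.15, 1.13 and 1.16 in the low-NFMP steers 3-1, 3-3 and 10-16. All 3 high-NFMP steers lay above the low-NFMP steers, a log2 difference of 0.28 (two-sided exact permutation p = 0.1, the smallest this design can give), which was 0.089 without steer 10-9. The ratio of TNNT3 to TNNC2 was likewise above the low-NFMP steers in each high-NFMP steer, but steer 10-8 (0.964) exceeded steer 3-1 (0.961) only narrowly, and it ran from 0.801 in steer 3-3 to 1.46 in steer 10-9. These are 2 of 6 ratios between subunits that were chosen after the values were seen. Among the slow forms, TNNT1 to TNNC1 lay between 0.294 and 0.406 and TNNI1 to TNNC1 between 0.0084 and 0.0147, the latter lowest in steer 3-8 and highest in steer 3-3. Their log2 differences were 0.136 and -0.295 (two-sided exact permutation p = 0.4 and 0.2). TNNI1 to TNNT1 lay between 0.0257 and 0.0477 and had the largest log2 difference of the 6 ratios, -0.431 (two-sided exact permutation p = 0.2), with overlap.

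**Figure D4:**
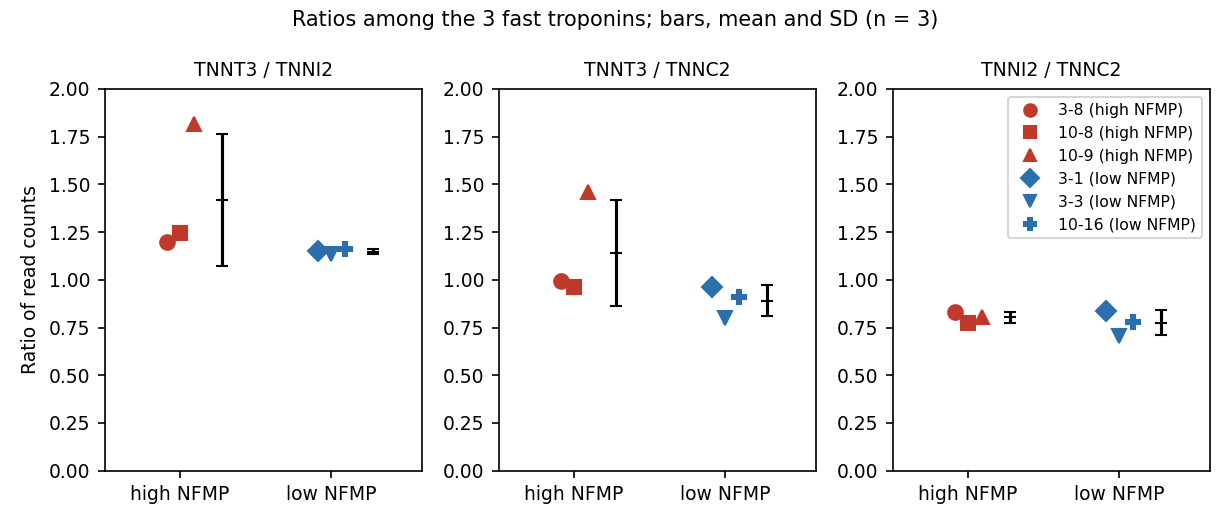
Ratios of read counts among the 3 fast troponins in each steer, all on one axis from 0 to 2, with the mean and SD of each group (n = 3). TNNT3 of steer 10-9 stands above the other steers at 1.82 relative to TNNI2 and 1.46 relative to TNNC2, and TNNI2 relative to TNNC2 stays between 0.706 and 0.837.

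The slow-to-fast balance was also taken from 8 other pairs of muscle genes. The ratio was lower in the high-NFMP group in 5 pairs and higher in 3, and the groups overlapped in all 8, with exact permutation p-values between 0.2 and 1. The largest difference was that of the essential light chains, MYL3 to MYL1, with ratios of 0.0510, 0.0402 and 0.0391 in the high-NFMP steers and 0.0938, 0.0905 and 0.0478 in the low-NFMP steers. Its log2 difference was -0.78 (two-sided exact permutation p = 0.2). Tropomyosin, which troponin T holds, gave -0.26 for TPM3 to TPM1 (two-sided exact permutation p = 0.2), and -0.17 without steer 3-1. The myosin heavy chains, MYH7 to the sum of MYH1 and MYH2, went the other way, with 0.30 (two-sided exact permutation p = 0.5). This difference was 0.077 without steer 10-9 and 0.53 without steer 3-8. Their ratio was 0.198, 0.276 and 0.373 in the high-NFMP steers and 0.215, 0.199 and 0.255 in the low-NFMP steers. Steer 10-9 thus had the highest slow-to-fast ratio of myosin heavy chains and the lowest of troponin T. It was also lowest in MYL2 to MYLPF, MYL3 to MYL1, ATP2A2 to ATP2A1, MYBPC1 to MYBPC2 and MYOZ2 to MYOZ1. In CASQ2 to CASQ1 steer 3-1 was lowest, and in TPM3 to TPM1 steer 3-8.

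**Figure D5:**
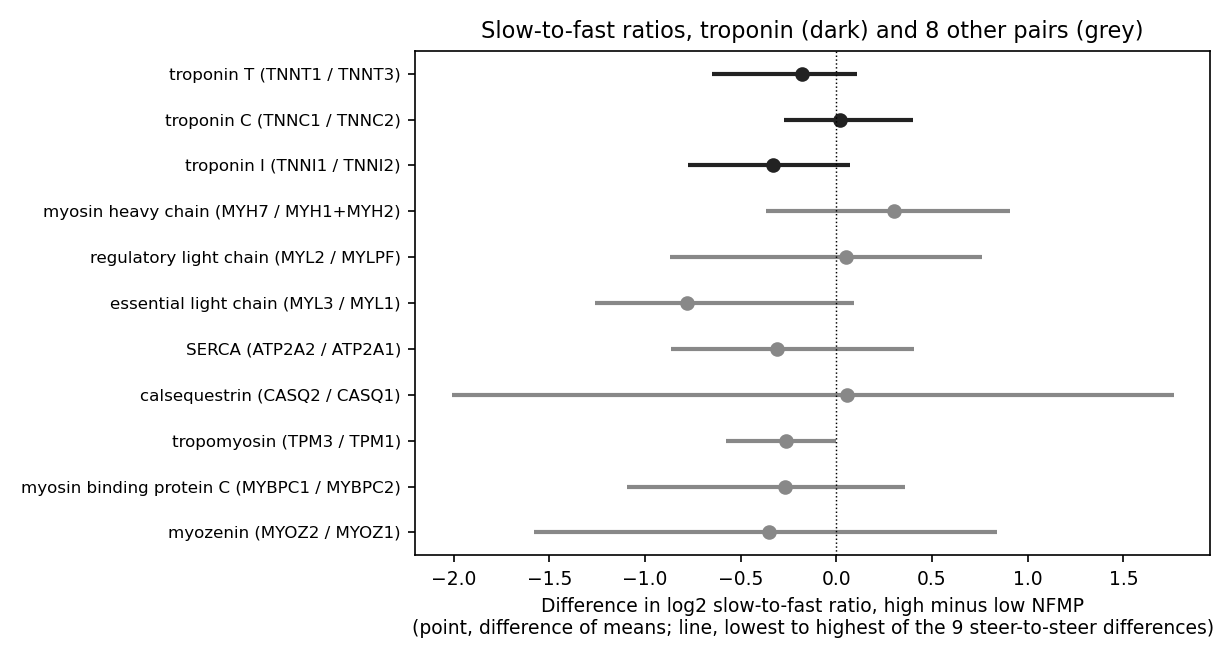
Difference of high minus low NFMP in log2 slow-to-fast ratio for the 3 troponin subunits (dark) and 8 other pairs (grey), with the point at the difference of the means and the line from the lowest to the highest of the 9 steer-to-steer differences. Every line crosses 0, and the points run from -0.78 to 0.30.

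Over the 6 libraries the troponin T and C ratios had a positive correlation that did not pass the exact test. Pearson's r of their log2 values was 0.61 (exact permutation p = 0.225) and Spearman's rho was 0.77 (exact permutation p = 0.103), and r was 0.83 without steers 10-9 and 10-16. With single steers left out, r ran from 0.47 (without 10-16) to 0.92 (without 3-3). The 2 steers left out of each relation were those farthest from the median of the ratio named first (the myosin ratio where it took part), and an r over the 4 that remain is a description only. For T and I, r was 0.26 (exact permutation p = 0.540) and rho was 0.26 (exact permutation p = 0.658), with an r of -0.79 without the same steers. For C and I, r was -0.023 (exact permutation p = 0.956) and rho was 0.37 (exact permutation p = 0.497), with an r of 0.98 without steers 10-9 and 3-3 but from -0.27 to 0.48 with each steer left out in turn. Against the myosin heavy chain ratio, r was -0.54, 0.033 and 0.13 for T, C and I (exact permutation p = 0.233, 0.935 and 0.765), and rho was -0.31, 0.26 and 0.14 (exact permutation p = 0.564, 0.658 and 0.803). Without steers 3-8 and 10-9 these r were 0.51, 0.74 and 0.15, so the relations rest on few steers. Adjusted over the 6 relations, the smallest p was 0.700 for r and 0.617 for rho by the exact permutation test. What the first number in a steer's label (3 or 10) stands for is unknown here, and with 3 libraries for each no correlation was taken within them.

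The study's thresholds of p and fold change, applied here to the edgeR test, called 3.9% of all tested genes. By them the 18 thin filament genes held 0 called genes, with a median log2 fold change of 0.10. The 15 slow fibre genes held 0 called genes, with a median of -0.08, and the 16 fast fibre genes held 1, with a median of 0.16. That gene was PVALB, the calcium buffer parvalbumin of fast fibres, with raw counts of 52, 50 and 18 in steers 3-8, 10-8 and 10-9 and of 23, 16 and 15 in steers 3-1, 3-3 and 10-16 (log2 fold change 1.27, adjusted p = 0.322 by edgeR). The 20 fibre type regulators held 0 called genes, with a median of -0.04. No gene of the 4 lists had an adjusted p below 0.05 by edgeR or limma, while DESeq2, which called 1.97% of all genes, gave 1 slow fibre gene (MYL3) and 2 regulators (PPARGC1A and ESRRG). At an unadjusted p below 0.05 by edgeR, the lists held 0 of 18, 1 of 15, 1 of 16 and 4 of 20 genes, beside 11.5% of all tested genes.

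MYL3, the slow essential light chain, had 3009, 3233 and 3395 normalized counts in the high-NFMP steers and 6326, 6409 and 3799 in the low-NFMP steers, without overlap (log2 fold change -0.78, adjusted p = 0.145 by edgeR). PPARGC1A, the coactivator PGC-1alpha of oxidative fibres, had 2850, 5121 and 4058 against 2850, 1730 and 1764, with steers 3-8 and 3-1 level (log2 fold change 0.92, adjusted p = 0.145 by edgeR). ESRRG, a nuclear receptor that works with PGC-1alpha, had 2330, 2314 and 1802 against 1276, 1195 and 1536, without overlap (log2 fold change 0.69, adjusted p = 0.141 by edgeR). VGLL2, a cofactor of TEAD factors in muscle, was at 0.73 and SIX4, a homeobox factor of muscle, at -0.44 (adjusted p = 0.186 and 0.435 by edgeR).

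The genes most like the mean of the 3 log2 troponin ratios were found over the 6 libraries among 8723 genes with a mean of at least 100 normalized counts. The highest Pearson r belonged to PHOSPHO2 (0.985), PRSS23 (0.985), LYRM7 (0.978), CAMSAP1 (0.978) and MED27 (0.976), and the lowest to MPDU1 (-0.992), NUBP1 (-0.990), FAM114A1 (-0.977), F11R (-0.975) and FBRS (-0.962). With so few libraries 1.3% of these genes lay beyond 0.9 in either direction. PRSS23, a serine protease, ran from 1064 normalized counts in steer 10-9 to 4988 in steer 10-16. Among the genes of the 8 other pairs, ATP2A2, the slow calcium pump, was closest to the mean ratio (r = 0.84), and MYH7 was at 0.235.

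Troponin I and T genes lie in pairs in vertebrate genomes. By gene order in RefSeq's annotation of ARS-UCD2.0, TNNI3 and TNNT1 are direct neighbours, TNNI1 and TNNT2 are separated by 1 gene (LAD1), and TNNI2 and TNNT3 by 2 genes (PRR33 and LSP1). That assembly is not the one used for mapping, so it served for the order of genes only, and none of the neighbours overlaps a troponin gene in it. In 2 of the 3 pairs the troponin genes lay far apart in counts. TNNT1 was counted between 8801 and 14127 times and TNNI3 beside it between 14 and 58 times, and TNNI1 was counted between 226 and 545 times and TNNT2 at most 7 times. The fast pair was closer, with TNNT3 between 1.13 and 1.82 times TNNI2. LSP1, between the fast pair and known from leukocytes, had 1130, 1286 and 1618 normalized counts in the high-NFMP steers and 926.3, 977.2 and 1103 in the low-NFMP steers, without overlap (log2 fold change 0.42, adjusted p = 0.412 by edgeR). Over all tested genes, 17.1% had no overlap. LSP1 was highest in steer 10-9, as were TNNT3, TNNI2, TNNT1 and also PHLDA3, which lies beside TNNI1. PRR33, the other gene between the fast pair, was highest in that steer too, but its groups overlapped (log2 fold change 0.19, adjusted p = 0.897 by edgeR). On the outer side of TNNT3, the noncoding RNA gene LOC101902793 had 1084, 1704 and 883.6 normalized counts against 994.2, 491.4 and 361.4, highest in steer 10-8 and with overlap (log2 fold change 0.99, adjusted p = 0.379 by edgeR).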

How the data were processed

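LT muscle of 3 high-NFMP and 3 low-NFMP steers was analysed, grouped by the sample labels. The authors deposited raw read counts per gene symbol from a Lexogen 3′ mRNA kit, single-end. Their methods name Tophat2 (UMD3.1 genome) and HTSeq in one place and Bowtie2 with unique and multiple alignments in another, and the processing notes of the labels name Bowtie2 and bedtools. Which route made the counts, and the strand setting, are not given in the sources used here. Repeated symbols (176 extra rows) were tested as separate rows.

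The test across genes used edgeR 4.0.16 under R 4.3.3 (default filter with minimum count 10 and total 15, TMM factors, robust quasi-likelihood test, Benjamini-Hochberg adjustment over 15039 rows). Intervals of log2 fold changes are 95% intervals from the fitted standard errors. Slow-to-fast ratios were taken from counts within a library and compared with a two-sided exact permutation test over 20 regroupings, with Python 3.11.15 and scipy 1.17.1. DESeq2 1.42.0, limma 3.58.1 and other settings were alternatives. The edgeR test across genes was tried on simulated data. Of 200 genes simulated with a difference it recovered 136 (68%), and it also called 16 that were simulated without one. No simulation result is given here for the exact permutation test of ratios or for the correlations. Among the genes given by steer, TNNT2, TNNI3 and PVALB had counts below 60, and the CASQ2 to CASQ1 ratio rests on as few as 36. With no molecular identifiers, counting errors cover reads and not molecules. The genes named are the 7 troponin genes, TNNI3, members of fixed lists past a threshold or in a fixed pair, the 5 most and 5 least like genes, and chromosome neighbours. Also named, outside this rule and with their values in view, were VGLL2, SIX4, ACTC1, CSRP3, ACTN3, and the heart and smooth muscle markers that the text gives. The members and lists were chosen with earlier results of these data known. Protein and promoter sequences are not shown.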

Additional observations from a re-analysis of the deposited data

How the results depend on the processing

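No troponin gene was called under any of the 14 alternatives, at the p and fold change threshold or at an adjusted p below 0.05. The troponin T and I ratios stayed lower in the high-NFMP group under all 13 and 12 alternatives. Among these, pseudocounts and, for T, the few TNNT2 counts could hardly move the ratios. With each steer left out, the log2 difference ran from -0.25 to -0.050 for T and from -0.47 to -0.16 for I. The difference in the troponin C ratio turned to -0.015 when the label's first number (3 or 10), which both groups share, was a term. It was 0.14 with age as a term and ranged from -0.12 to 0.099 with each steer left out. Of 84 fits of the 6 tested genes among the 7, 71 kept their direction. TNNC1 turned to -0.018 with library totals alone, -0.026 with quantile normalization and -0.032 with the label number, and ranged from -0.038 to 0.20 with each steer left out. TNNC2 turned to -0.063, -0.038 and -0.030 under those settings and to -0.070 with age as a term, and ranged from -0.075 to 0.22, and TNNI1 ranged from -0.35 to 0.054 (-0.066 without 3-3) and was -0.40 with the label number. With that term the T and I ratio differences were -0.20 and -0.44, TNNT1 was at 0.072 and TNNI2 at 0.041. With library totals alone, TNNT1 was at 0.13 and TNNI2 at 0.0047. With each steer left out, the differences ran from -0.17 to 0.31 for MYL2 to MYLPF, 0.077 to 0.53 for myosin heavy chains, -0.34 to -0.17 for TPM3 to TPM1, -0.56 to -0.17 for ATP2A2 to ATP2A1, -0.59 to 0.87 for CASQ2 to CASQ1, -0.43 to 0.013 for MYBPC1 to MYBPC2 and -0.81 to 0.13 for MYOZ2 to MYOZ1. The correlations ran from -0.091 to 0.87 (T with I), -0.27 to 0.48 (C with I), and, with the myosin ratio, -0.83 to 0.46 (T), -0.63 to 0.62 (C) and -0.65 to 0.51 (I). With group means subtracted they were -0.068 (T with I), 0.018 (C with I) and 0.645 (myosin with I, from 0.13), and with slow shares -0.0066 (myosin with C). The causes were not tested.

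Over all genes, 586 passed by p and fold change, against 969 with no filter and 364 with at least 10 counts in every library. At an adjusted p below 0.05 there were 103, against 240 with no filter, 291 by DESeq2, 65 by limma, 31 with age as a term and between 28 and 82 with a steer left out (28 without 3-3, 33 without 3-8, 41 without 10-8, 63 without 10-16). The order of steers and the TNNT3 to TNNI2 ratio were both chosen after seeing the data. Steers 10-8, 10-9 and 3-3 were highest in 5 or 6 troponin genes in the 3 alternatives run. The log2 difference of TNNT3 to TNNI2 ran from 0.089 to 0.39 in its 6 alternatives, which each left out a steer. Its sign could not turn there, because the groups did not overlap in this ratio.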
